A study of Mus musculus with 3 samples.

Results

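Slit ligands, their Robo receptors, class 3 semaphorins and the neuropilins that bind them were examined on 3 single-colour mouse expression arrays. The set was Slit2, Slit3, Robo1, Robo2, Sema3a, Sema3c, Sema3d, Sema3e, Nrp1 and Nrp2, taken by gene symbol from the platform's probe table, and it made up 10 of the 19938 genes measured. Each of the 10 had 1 probe set, and 0 probe sets were shared with another gene. The genes were picked with their values on these arrays known, so their levels and differences are given as a description, with no test.

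Total RNA came from cells named DiBA, from a brown adipocyte sample named BA, and from mouse fibroblasts, with 1 array per group. In its title the series is about brown adipocytes made by direct conversion, and the labels give no strain, age, treatment or converting factor for any group. The labels describe DiBA and the fibroblasts as cultured cells. For BA they name brown adipose tissue as the source but describe it as cultured, and they do not settle which was used. With 1 array per group there was no spread between replicates, and each difference lacks a replicate check.

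Slits are secreted proteins that bind Robo receptors on growing axons and migrating cells and usually repel them. Class 3 semaphorins are secreted guidance proteins of a related function, which signal through plexins, most of them with a neuropilin as the binding partner on the cell surface. Both systems also act on blood vessels and on mesenchymal cells. In brown fat they are of interest because sympathetic nerves drive heat production, and because in mice a cleaved fragment of Slit2 has been described as a secreted product of beige fat cells.

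The arrays were alike in their overall brightness, with median intensities of 71.5 for DiBA, 67.7 for BA and 67.8 for fibroblasts. The median over all probe sets and arrays was 69.2, and values below it are treated here as close to background. A gene was called higher or lower where 2 arrays differed at least 2-fold and the brighter of them reached 69.2. Of 14 adipocyte markers, 14 were higher in DiBA and 14 in BA than in fibroblasts. Markers of other cells did not all move one way. Endothelial markers were called higher for 11 of 15 genes in DiBA and 12 of 15 in BA, and their summed intensity was 4427 in DiBA, 5308 in BA and 1498 in fibroblasts. Macrophage and immune markers summed to 4530.0 in DiBA, 4557 in BA and 1378 in fibroblasts, over 14 genes measured. Neural and Schwann cell markers were mostly dim, with 10 of 12 under 69.2 in DiBA, 9 in BA and 10 in fibroblasts. The fibroblast markers summed to 20504 in DiBA, 17281 in BA and 42787 in fibroblasts. Of these 14 markers, 8 were lower and 2 higher in DiBA, and 9 lower and 2 higher in BA. The higher ones were Dcn (5590 in DiBA, 5934 in BA, 2655 in fibroblasts) and Lum (815, 817, 341). Of all markers listed, only Fn1 was called between DiBA and BA, with 2799 in DiBA, 850 in BA and 7920 in fibroblasts. Of 9 mural cell markers, 4 were lower and 3 higher in DiBA, and likewise in BA, with summed intensities of 3494 in DiBA, 3900 in BA and 12478 in fibroblasts. The contractile genes Tagln (-4.46 log2 in DiBA, -4.37 in BA), Cnn1 (-3.99, -3.65) and Acta2 (-3.63, -3.85) were lower, as most guidance genes were, whereas the pericyte gene Rgs5 was higher (3.69, 3.89). The endothelial and immune sums of DiBA lay near those of BA, although the labels describe DiBA as cultured cells, and which cells the DiBA sample held is not settled here. In such mixed RNA, fewer cells of a type and less RNA per cell cannot be told apart, and the part these markers play in the results below was not tested.

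Of the 10 guidance genes, 6 were called lower and 0 higher in DiBA than in fibroblasts. Over all genes measured, 7.67% were called lower and 8.54% higher in that comparison, and of those that passed the level filter 13.2% were lower. In BA, 8 of the 10 were lower than in fibroblasts and 0 higher, where 9.59% of all genes were lower, 9.51% higher, and 16.4% of those passing the filter lower. In DiBA against BA, 4 of the 10 were higher and 0 lower, where 0.973% of all genes and 1.75% of those passing the filter were higher, and 0% lower. With intensities under 69.2 raised to it, 2 of the 10 were higher in DiBA than in BA, namely Slit2 and Robo1, beside 0.687% of all genes. Since the genes were chosen on these arrays, nothing is read from the gap between their counts and those shares. Both comparisons with fibroblasts share 1 array. All 10 genes passed the level filter against fibroblasts, 2 of them in DiBA and 6 in BA only through the fibroblast value. In DiBA against BA 8 of 10 passed, 4 of them only through DiBA, and Sema3a and Sema3e were below 69.2 on both arrays.

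**Figure D1:**
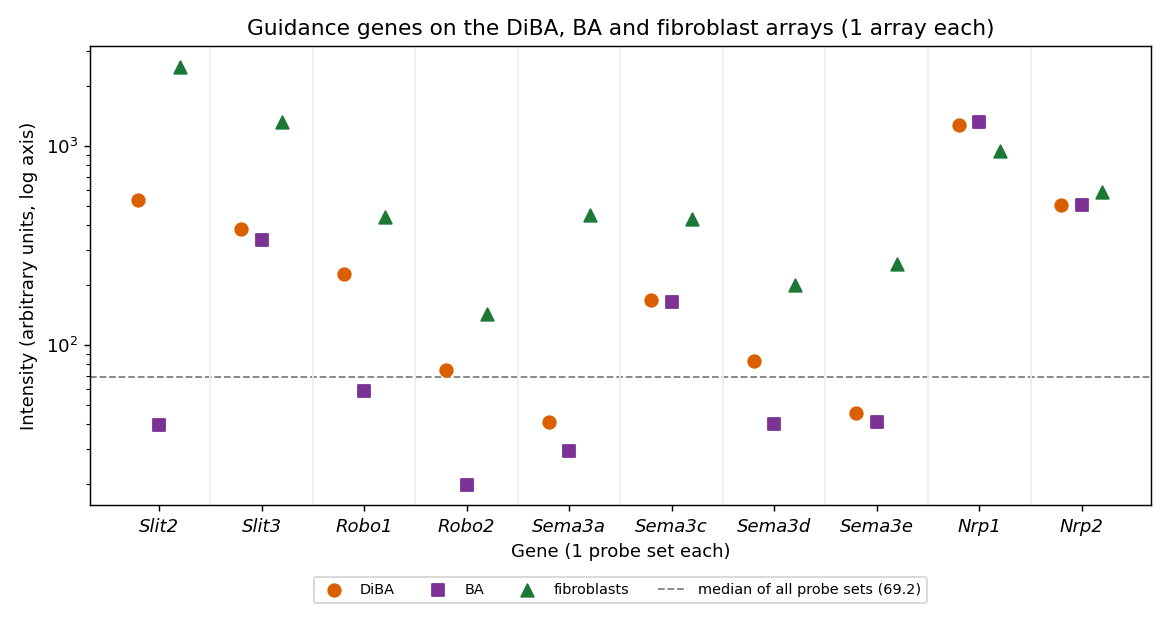
Intensity of the probe set of each gene (log axis) on the DiBA, BA and fibroblast arrays, 1 point per array, with the median of all probe sets (69.2) as a dashed line. Slit2, Robo1, Robo2 and Sema3d have DiBA points between BA and fibroblasts and apart from both, while DiBA and BA points lie close together for Slit3, Sema3c, Sema3e, Nrp1 and Nrp2.

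The ligand Slit2 separated the 3 arrays most widely within the set. Its probe set 10521759 had an intensity of 539 in DiBA, 39.5 in BA and 2511 in fibroblasts. DiBA thus lay between the others, and BA lay under 69.2, which is treated here as close to background. The difference was -2.22 (log2) for DiBA against fibroblasts, a 4.65-fold lower intensity, and -5.95 for BA against fibroblasts, a 62.0-fold lower intensity. Between DiBA and BA it was 3.74, or 13.3-fold higher in DiBA. Because the BA value is near background, both folds that involve it are uncertain. When intensities under 69.2 were raised to that floor, Slit2 was 35.8-fold lower in BA than in fibroblasts and 7.69-fold higher in DiBA than in BA.

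Slit3, the second Slit ligand of the set, was lower in both adipocyte samples and differed little between them. Its intensity was 383 in DiBA, 338 in BA and 1328 in fibroblasts (probe set 10375175). That is 3.46-fold lower in DiBA and 3.92-fold lower in BA than in fibroblasts. DiBA exceeded BA by 1.13-fold. All 3 values were well above 69.2, so the floor left these folds as they were. The third ligand of the family, Slit1, had the identical deposited value of 45.0 on each of the 3 arrays, below the median of all probe sets. It is not read as a constant level.

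The receptor Robo1 had an intensity of 227 in DiBA, 58.7 in BA and 441 in fibroblasts (probe set 10436519). DiBA stood in the middle, and BA fell below the median of all probe sets. Robo1 was 7.41-fold lower in BA than in fibroblasts, and 3.82-fold higher in DiBA than in BA, or 3.24-fold with the floor. Its difference between DiBA and fibroblasts, -0.96 (log2), lay just under the 2-fold threshold, and it passed at -1.03 when each array was centred on its median.

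Robo2, which shares the Slit ligands with Robo1, had the same order at lower brightness. Its intensity was 74.5 in DiBA, 19.8 in BA and 144 in fibroblasts (probe set 10440344). The difference was -0.94 (log2) for DiBA against fibroblasts, which became -1.01 with centred arrays, and -2.80 for BA against fibroblasts. Robo2 was 3.63-fold higher in DiBA than in BA, but only the DiBA value reached 69.2, and with the floor the fold was 1.08. The call in DiBA against BA was therefore lost with the floor, and Robo2 was then 2.06-fold lower in BA than in fibroblasts, in place of 6.96-fold. Robo1 and Robo2 lie next to each other in the RefSeq gene table among genes measured here. Robo3 had the identical deposited value of 23.4 on each array, which is not read as a constant level either.

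**Figure D2:**
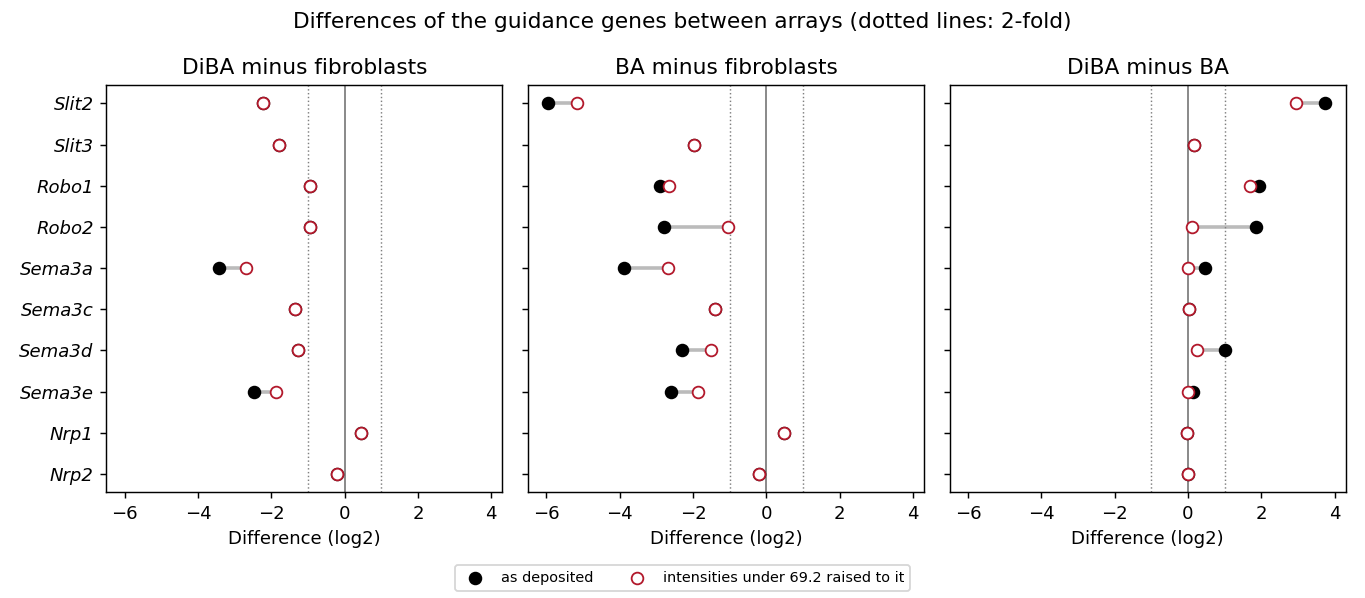
Difference of each gene in log2 units for DiBA minus fibroblasts, BA minus fibroblasts and DiBA minus BA, as deposited (filled) and with intensities under 69.2 raised to it (open); dotted lines mark 2-fold. Slit2 and Robo1 stay beyond 2-fold in DiBA minus BA with the floor, at 2.94 and 1.70, whereas Robo2 and Sema3d move to 0.11 and 0.25.

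Among the semaphorins, Sema3a, which repels sensory and sympathetic axons, was lowest relative to fibroblasts. Its intensity was 40.7 in DiBA, 29.3 in BA and 449 in fibroblasts (probe set 10519717). Only the fibroblast value exceeded 69.2. Sema3a was 10.8-fold lower in DiBA and 14.8-fold lower in BA, and 6.41-fold lower in each with the floor. The DiBA value is one that 84 probe sets of that array carry exactly, Sema3a included, so the order of DiBA and BA below 69.2 is not read. Some values of other genes of the set were repeated too, by fewer probe sets. Among them were the BA values of Sema3c (11 probe sets), Slit2 (8) and Sema3e (6), and the fibroblast value of Robo2 (7).

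Sema3e, which binds plexin D1 directly and steers blood vessels in the mouse embryo, was likewise below 69.2 in DiBA and BA and above it in fibroblasts. It had an intensity of 45.2 in DiBA, 41.0 in BA and 254 in fibroblasts (probe set 10519747). The folds were 5.53 lower in DiBA and 6.08 lower in BA than in fibroblasts, and 3.64 lower in each with the floor.

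Sema3c, a ligand of neuropilins and plexins that guides neural crest cells in the mouse heart, kept a measurable level on all arrays. It had 168 in DiBA, 164 in BA and 431 in fibroblasts (probe set 10519886). It was 2.55-fold lower in DiBA and 2.62-fold lower in BA than in fibroblasts, and DiBA and BA differed by 1.03-fold.

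Sema3d, a further secreted class 3 semaphorin, had 82.5 in DiBA, 40.1 in BA and 200.2 in fibroblasts (probe set 10519693). DiBA lay between the others, as it did in the deposited values of every gene of the set called lower in BA. Sema3d was 2.41-fold lower in DiBA and 4.89-fold lower in BA than in fibroblasts, and 2.03-fold higher in DiBA than in BA. With the floor its difference of BA against fibroblasts was -1.52 (log2) in place of -2.29. The difference of DiBA against BA, 1.02 on the log2 scale, was just inside the threshold. It was 0.94 with centred arrays, 0.96 after quantile normalization and 0.25 with the floor, each short of 2-fold. Sema3d, Sema3a, Sema3e and Sema3c all lie on chromosome 5, with Sema3d and Sema3a next to each other among genes measured here, and Slit2 is on the same chromosome.

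The neuropilins did not follow their ligands. Nrp1, the coreceptor of Sema3a and of the vascular growth factor Vegfa, had 1285 in DiBA, 1318 in BA and 949 in fibroblasts (probe set 10576639). It was 1.35-fold higher in DiBA and 1.39-fold higher in BA than in fibroblasts, below the 2-fold threshold. Endothelial markers, whose sums are given above, were higher in the same samples, and Kdr, the main Vegfa receptor of endothelium, was at 329 in DiBA, 422 in BA and 157 in fibroblasts. Nrp2, which prefers Sema3f and Vegfc, had the identical deposited value of 507 in DiBA and in BA, against 585 in fibroblasts (probe set 10346843), a difference of -0.21 (log2) for each. Such identical values were common, at 47.3% of all probe sets between DiBA and BA. Between DiBA and fibroblasts they made up 39.5%, and between BA and fibroblasts 37%. A difference of 0 is therefore no measure of how closely the samples match.

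The 8 genes lower in BA differed in where DiBA stood between BA and fibroblasts. With the BA intensity set at 0% and the fibroblast intensity at 100%, DiBA stood at 44.2% for Robo2, 43.9% for Robo1, 26.4% for Sema3d and 20.2% for Slit2. For Slit3, Sema3a, Sema3e and Sema3c it stood at 4.54%, 2.71%, 1.97% and 1.66%. Thus 4 of the 8 were at 20% or more and 4 were under 5%, with none in between. Over all 1913 genes called lower in BA than in fibroblasts, the median was 10.2%, with quartiles of 3.87% and 17.5%. Of these genes, 3.08% stood at or above Robo1 and 19.8% at or above Slit2, while 29.7% were under 5%. Dim genes are placed less surely. With the floor, Slit2 and Robo1 were at 19.2% and 42.3%, but Sema3d was at 10.2% and Robo2 at 7.22%, and Sema3a and Sema3e, below 69.2 in DiBA and BA, were at 0%.

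**Figure D3:**
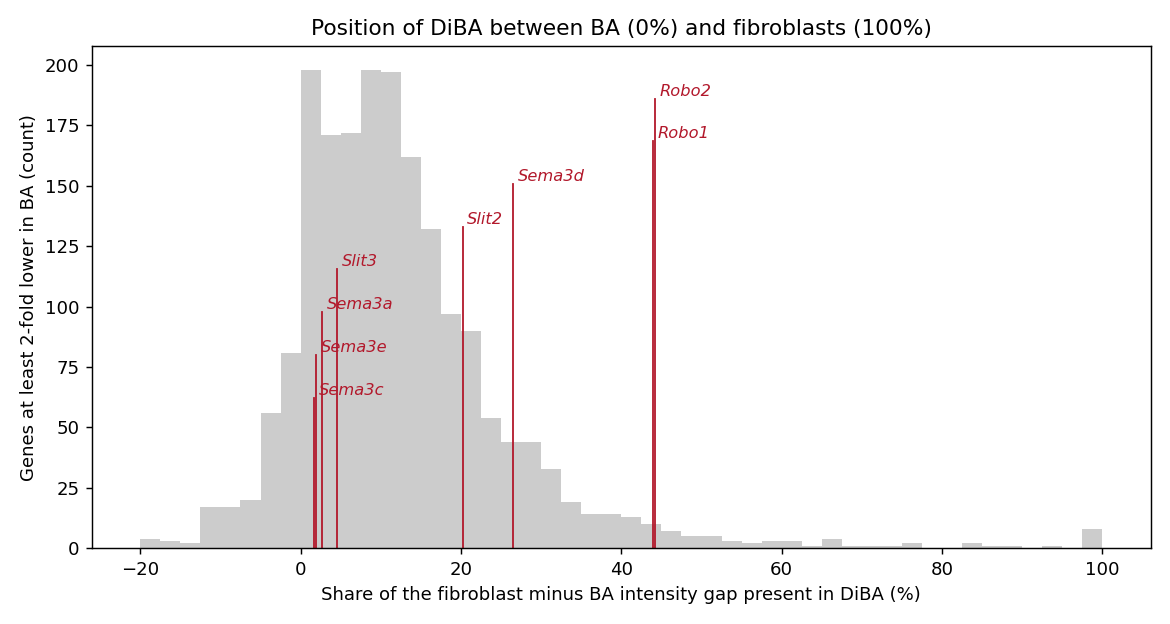
Histogram of the position of DiBA between BA (0%) and fibroblasts (100%) in linear intensity, for the 1913 genes at least 2-fold lower in BA than in fibroblasts, with values beyond the axis counted in the end bars. Red lines mark the 8 guidance genes and their height carries no value; Slit3, Sema3a, Sema3c and Sema3e lie under 5%, and Slit2, Sema3d, Robo1 and Robo2 between 20.2% and 44.2%.

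Slit2 and Slit3 each carry a microRNA hairpin inside the gene, and the array holds a probe set for both hairpins. The hairpins Mir218-1, within Slit2, and Mir218-2, within Slit3, yield the same major mature strand, miR-218-5p, which has been described to target Robo1 and Robo2 transcripts. The mature strands are shown because both hairpins lie within a ligand gene of the set, on its strand. Sequences are those of RefSeq on GRCm38.p6, 5′ to 3′, with the seed (bases 2 to 8) in capitals. The first strand comes from both hairpins, at chr5:48223966-48223986 (plus strand) and chr11:35616840-35616860 (plus strand). The others come from chr5:48224005-48224026 and chr11:35616882-35616903, also on the plus strand, and their seeds differ from each other and from that of the first.
miR-218-5p: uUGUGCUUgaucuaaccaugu
miR-218-1-3p: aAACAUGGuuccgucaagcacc
miR-218-2-3p: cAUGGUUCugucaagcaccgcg

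The probe set of Mir218-1 had the order of its host. Its intensity was 98.7 in DiBA, 30.9 in BA and 344 in fibroblasts (probe set 10521796). It was 3.46-fold lower in DiBA and 10.8-fold lower in BA than in fibroblasts, and DiBA stood at 21.6% between BA and fibroblasts, where Slit2 stood at 20.2%. The BA value was under 69.2, and with the floor the difference of BA against fibroblasts was -2.30 (log2) in place of -3.44. The difference between DiBA and BA, 1.64 (log2), became 0.51 with the floor, and its call was lost. The position of DiBA for Mir218-1 was not computed with the floor, so its nearness to that of Slit2 is not read. Mir218-2, by contrast, was at 40.0 in DiBA, 40.0 in BA and 43.5 in fibroblasts (probe set 10375214), under 69.2 throughout, while its host Slit3 was well above it. Both hairpins were chosen for description once their values were known. They detect RNA that holds the hairpin, so the mature microRNA and unspliced host RNA cannot be told apart.

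**Figure D4:**
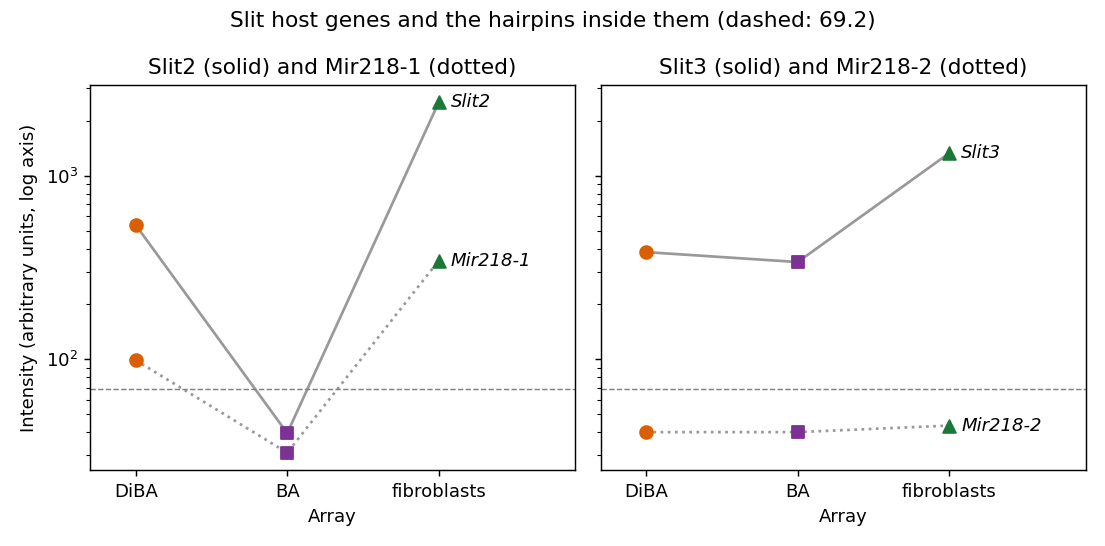
Intensity (log axis) of Slit2 with Mir218-1 and of Slit3 with Mir218-2 on the DiBA, BA and fibroblast arrays, with the median of all probe sets dashed; lines only join values of 1 probe set. Mir218-1 has the same order of arrays as Slit2, at 98.7 in DiBA, 30.9 in BA and 344 in fibroblasts, and Mir218-2 stays between 40.0 and 43.5.

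The promoters of 4 genes are shown to set the DNA beside these patterns: the paralogues Slit2 and Slit3, of which Slit2 differed between DiBA and BA and Slit3 did not reach 2-fold, then Robo1, and Sema3a, which was near background in both adipocyte samples. Each is the stretch of 250 bases before the annotated start in RefSeq (GRCm38.p6), 5′ to 3′ on the gene's strand. Capitals mark matches on either strand to any of 5 motifs, and neighbouring GC boxes can overlap. The TATA box was searched for with the letters TATAAA. The CCAAT box was searched for under the letters of its name. For the GC box the letters searched were GGGCGG. An AP-1 motif was taken as TGANTCA, where N is any base. A TEAD motif was taken as GGAATG.
Slit2, chr5:47982905-47983154 (plus strand): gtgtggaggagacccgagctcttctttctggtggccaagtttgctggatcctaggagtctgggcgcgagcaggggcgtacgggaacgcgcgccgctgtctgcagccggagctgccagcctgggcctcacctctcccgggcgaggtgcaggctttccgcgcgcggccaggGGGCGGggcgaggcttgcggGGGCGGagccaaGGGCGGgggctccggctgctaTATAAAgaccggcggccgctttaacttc
Slit3, chr11:35121206-35121455 (plus strand): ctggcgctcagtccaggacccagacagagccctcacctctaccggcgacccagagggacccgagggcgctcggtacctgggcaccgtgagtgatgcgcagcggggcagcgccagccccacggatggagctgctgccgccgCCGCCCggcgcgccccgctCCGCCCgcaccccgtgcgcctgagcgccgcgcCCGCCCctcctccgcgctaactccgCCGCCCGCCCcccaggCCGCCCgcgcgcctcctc
Robo1, chr16:72662899-72663148 (plus strand): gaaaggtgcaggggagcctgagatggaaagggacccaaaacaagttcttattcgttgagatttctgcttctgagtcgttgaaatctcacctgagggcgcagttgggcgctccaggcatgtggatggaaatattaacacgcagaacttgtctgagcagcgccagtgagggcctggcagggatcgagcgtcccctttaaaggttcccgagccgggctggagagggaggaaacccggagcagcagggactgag
Sema3a, chr5:13396534-13396783 (plus strand): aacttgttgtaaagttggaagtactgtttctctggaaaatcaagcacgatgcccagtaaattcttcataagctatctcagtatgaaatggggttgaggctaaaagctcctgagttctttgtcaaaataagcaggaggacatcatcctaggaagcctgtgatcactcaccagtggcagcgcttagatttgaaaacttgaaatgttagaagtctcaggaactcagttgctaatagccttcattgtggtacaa

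The promoters of Slit2 and Slit3 were both rich in GC and held GC boxes, while those of Robo1 and Sema3a held fewer CG pairs. The GC content was 69.6% for Slit2, 78.8% for Slit3, 56.0% for Robo1 and 40.8% for Sema3a, where all 32851 promoters of the table had a median of 52.4%, with quartiles of 45.2% and 61.2%. The number of CG pairs was 25 for Slit2, 35 for Slit3, 11 for Robo1 and 2 for Sema3a, beside a median of 6. Slit2 held 1 TATA box and 3 GC boxes, and Slit3 held 6 GC boxes and 0 TATA boxes. Robo1 and Sema3a held 0 matches to any of the 5 motifs. Over all 10 genes, with 12 promoter windows since Robo2 has 3, the GC box occurred for 6 genes (Slit2, Slit3, Sema3c, Sema3e, Nrp1 and Nrp2), the TATA box for Slit2 alone and the CCAAT box for Sema3d alone. The AP-1 and TEAD motifs occurred in 0 windows. Over all promoters of that length, 12.4% held the TATA box, 33.8% the CCAAT box, 32.7% the GC box, 6.75% the AP-1 motif and 12.6% the TEAD motif. These matches describe the letters in the windows and are not shown to be binding sites.

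Genes next to the guidance genes had varied patterns. Among measured protein-coding neighbours in the RefSeq table, Gbe1, the glycogen branching enzyme next to Robo1, differed by 3.96 (log2) in DiBA and 4.11 in BA against fibroblasts, with an intensity of 2212 in DiBA, 2457 in BA and 141 in fibroblasts. Cd36, the fatty acid receptor next to Sema3c, differed by 5.69 in DiBA and 5.78 in BA. Beside Slit2, Lcorl differed by 0.09 in DiBA and 0.09 in BA, and Pacrgl by -0.40 and -0.42, while Ncapg, a condensin subunit gene farther out, was at -2.05 in DiBA and -3.43 in BA, with both intensities under 69.2. Itgb1, an integrin chain next to Nrp1, was lower, at -1.50 in DiBA and -1.76 in BA. These neighbours were named after their values were seen.

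Further genes of the Slit and Robo pathway were more often lower than higher. Of 19 measured, 6 were lower and 1 higher in DiBA than in fibroblasts, with a median difference of -0.77 (log2). The counts in BA were 10 lower and 1 higher (median -1.11). Over all genes measured, 7.67% were lower and 8.54% higher in DiBA, and 9.59% and 9.51% in BA, beside this list and those below. Of genes passing the level filter, 13.2% were lower in DiBA and 16.4% in BA. The median over all genes was 0 in each comparison. It takes in dim genes and identical deposited values, at 39.5% of probe sets between DiBA and fibroblasts and 37% between BA and fibroblasts. The list medians are therefore not read against it. Enah, an actin regulator whose Drosophila counterpart acts below Robo, had an intensity of 165 in DiBA, 117 in BA and 799 in fibroblasts. Srgap1, a GTPase activating protein that binds Robo1, had 72.7 in DiBA, 67.0 in BA and 273 in fibroblasts. Sdc1, a cell surface heparan sulphate proteoglycan, had 192 in DiBA, 126 in BA and 416 in fibroblasts. Ndnf, a secreted glycoprotein gene, differed by -2.49 in DiBA and -3.20 in BA, where its value was under 69.2 and the difference with the floor was -2.61. The 1 higher gene was Robo4, the endothelial member of the Robo family, with 97.4 in DiBA, 112 in BA and 47.7 in fibroblasts. With the fibroblast value raised to the floor, its difference was 0.49 (log2) in DiBA and 0.69 in BA, and both calls were lost. It was named after its value was seen, and endothelial markers were higher in the same samples. Between DiBA and BA, 0 of the 19 reached 2-fold.

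The remaining class 3 semaphorins and their receptors had few calls. Of Sema3b, Sema3f and Sema3g, 0 were called in DiBA against fibroblasts and 1 in BA, namely Sema3f, with 213 in DiBA, 141 in BA and 365 in fibroblasts. Sema3b had the identical deposited value of 103 on each array, which is not read as a constant level. Sema3g had 74.1 in DiBA, 81.3 in BA and 57.7 in fibroblasts. Of 8 coreceptors, mainly plexins of the A and D classes, 1 was lower in DiBA and 2 in BA, with 0 higher and a median of -0.35 in both. Plxna4, which passes on Sema3a signals with a neuropilin, differed by -1.25 in DiBA and -1.17 in BA, and Plxna3 by -0.54 and -1.03. Plxnd1, the Sema3e receptor, had 447 in DiBA, 447 in BA and 264 in fibroblasts, which is 0.76 for each and short of 2-fold.

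Genes of proteins that relay semaphorin signals inside the cell were more often called lower than higher. Of 15 genes, DiBA had 6 lower and 0 higher than fibroblasts (median -0.73), and BA had 6 lower and 1 higher (median -0.78). Dpysl3, of the collapsin response mediator family, had 198 in DiBA, 208 in BA and 1293 in fibroblasts. Farp1, a guanine nucleotide exchange factor, had 172 in DiBA, 107 in BA and 909 in fibroblasts. Mical2, an enzyme that oxidises actin, differed by -1.80 in DiBA and -1.69 in BA, and the kinase gene Fyn by -1.67 and -1.42. Mical3, at 1.02 in BA, was the 1 higher gene and was named after its value was seen.

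**Figure D5:**
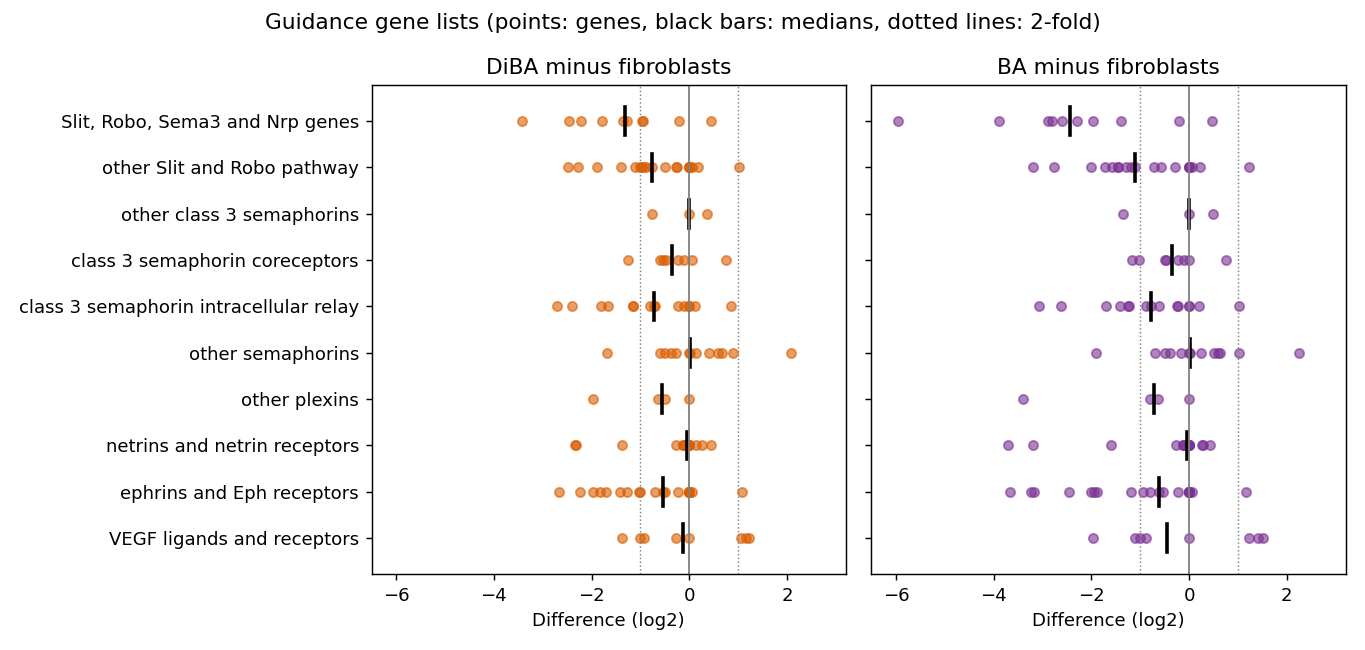
Difference in log2 units of each measured gene of the 10 guidance gene sets for DiBA minus fibroblasts and BA minus fibroblasts, with the median of each list as a black bar and 2-fold as dotted lines. The first row holds the 10 genes described here, with medians of -1.31 in DiBA and -2.45 in BA, and it was chosen on these values.

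Other guidance families were mixed. Of 13 semaphorins of other classes, DiBA had 1 lower and 1 higher than fibroblasts (median 0.01), and BA had 1 lower and 2 higher. Sema4a, a membrane semaphorin of immune cells, had 162 in DiBA, 181 in BA and 37.2 in fibroblasts, and macrophage markers were higher in the same samples. Sema4b differed by 0.89 in DiBA and 1.02 in BA. Sema5a, a transmembrane semaphorin, had 142 in DiBA, 121 in BA and 457 in fibroblasts. Among 4 further plexins 1 was lower in each comparison with fibroblasts. It was Plxnb2, a receptor of class 4 semaphorins, with 446 in DiBA, 166 in BA and 1757 in fibroblasts.

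Netrins and their receptors had 3 of 14 genes lower in DiBA and 3 in BA, with 0 higher and a median of -0.04 in both. The lower ones were the netrin receptors Unc5c, Unc5b and Neo1. Unc5c had 118 in DiBA, 44.5 in BA and 592 in fibroblasts, and Unc5b had 119 in DiBA, 64.8 in BA and 604 in fibroblasts. Neo1 differed by -1.37 in DiBA and -1.60 in BA. Ephrins and Eph receptors had 9 of 21 lower and 1 higher in DiBA, and 8 lower and 1 higher in BA, with medians of -0.54 and -0.61. Epha7 had 153 in DiBA, 31.3 in BA and 409 in fibroblasts, and Epha3 had 37.7 in DiBA, 25.2 in BA and 246 in fibroblasts. Ephb3 differed by -2.24 in DiBA and -3.17 in BA, and Epha4 by -1.70 and -2.46. Both were under 69.2 in BA, and with the floor their BA differences were -2.81 and -2.21. The 1 higher gene, Efna1, was at 1.07 in DiBA and 1.17 in BA and was named after its value was seen. Its fibroblast value, 62.7, was under 69.2, and with the floor it was at 0.93 in DiBA, where the call was lost, and at 1.03 in BA.

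The growth factor system that shares neuropilins with the semaphorins had members on both sides. Of 8 genes of vascular endothelial growth factors and their receptors, 2 were lower and 3 higher in DiBA, and 3 were lower and 3 higher in BA. Vegfa had 1417 in DiBA, 1483 in BA and 634 in fibroblasts, and Vegfb had 1351 in DiBA, 1651 in BA and 579 in fibroblasts. Kdr, given above, was the third higher gene. Vegfc, a growth factor of lymphatic vessels, had 81.1 in DiBA, 53.3 in BA and 213 in fibroblasts. The other lower genes were Pgf, a placental growth factor, at -1.01 (log2) in each, and in BA Vegfd at -1.11, both named after their values were seen. Pgf had 35.6 in DiBA, 35.6 in BA and 72.7 in fibroblasts, and with the floor both of its calls were lost, at -0.07.

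Over all 105 measured genes of these further lists, 29 were lower and 6 higher in DiBA than in fibroblasts, and 35 were lower and 8 higher in BA. Over all genes, 7.67% were lower and 8.54% higher in DiBA, and 9.59% and 9.51% in BA. Of genes passing the filter, 13.2% and 16.4% were lower. In DiBA against BA, 3 were higher and 0 lower. There, 0.973% of all genes and 1.75% of those passing the filter were higher, and 0% lower. The lists were chosen with earlier results known, so nothing is read from the gap. The 3 higher in DiBA than in BA were the receptor genes Epha7 at 2.26 (log2), Plxnb2 at 1.42 and Unc5c at 1.38. Their order was BA lowest, DiBA between and fibroblasts highest, as for the 8 guidance genes called lower in BA. That order was common. Of all 1913 genes called lower in BA than in fibroblasts, 200 had DiBA below BA. Others had DiBA equal to BA or above fibroblasts, with a highest position of 284%, and these were not counted. The quartiles of the position, 3.87% and 17.5%, both lay between BA and fibroblasts. Epha7 and Unc5c were under 69.2 in BA. With the floor Epha7 was at 1.14, and Unc5c at 0.76, so that its call was lost and 2 of the 3 remained.

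The genes with the pattern most like each guidance gene were found by the distance between centred log2 intensities over the 3 arrays, with the floor applied, among 11698 candidates. For Slit2 the nearest were Lox, the collagen crosslinking enzyme, Vcan, a large matrix proteoglycan, Igf2, an insulin-like growth factor, Cdh11, a mesenchymal cadherin, and Mest, an imprinted gene, at distances of 0.35 to 0.70. Lox had 1033 in DiBA, 179 in BA and 6467 in fibroblasts, and Vcan had 553 in DiBA, 87.6 in BA and 2023 in fibroblasts. Nearest to Robo1 were Osmr, a cytokine receptor, Sfrp1, a secreted Wnt inhibitor, and the histone gene H2bc14, at 0.13 to 0.21, with Osmr at 778 in DiBA, 210 in BA and 1401 in fibroblasts. For the other 6 genes lower in BA the nearest 3 lay much closer, at 0.0042 to 0.048. They were 2310022B05Rik, Erg28 and Aff3 for Slit3, Lgalsl, Tbx5 and Ubqln2 for Robo2, and Galnt17, Prc1 and Htr1b for Sema3a. For Sema3c they were Tnfrsf23, Mras and Dstn, for Sema3d Pbdc1, Xpo1 and Auts2, and for Sema3e Kif2c, Smim3 and Aif1l. With 3 arrays a pattern has few ways to differ, and the floor removes what lies under 69.2: Robo2 and Lgalsl count as alike although Lgalsl had 635 in BA.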

How the data were processed

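Total RNA of 3 mouse samples was hybridised to 1-colour Affymetrix arrays, 1 per group. The authors deposited 1 linear intensity per probe set and array, and the submitters' processing notes name Affymetrix Expression Console as the software. Version, summarization and normalization: not given in the sources used here. Scanner files were not used here. Quartiles of the arrays lay close together, so the intensities were taken as normalized.

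Of 28943 probe sets, 21789 had 1 gene symbol in the platform's table, 1621 several and 5533 were not listed. Log2(intensity + 1) was averaged over probe sets of a gene with Python 3.11.15 and pandas 2.3.3, so folds of dim genes are understated. A check on simulated arrays without noise, with changes put only into genes well above 69.2, tested the code of the call rule. It says nothing about noise between arrays or about dim genes. No p-value was possible, and the number of arrays limits the precision. Members and gene lists were chosen with earlier results of these data known. Genes named were all members, up to 4 called genes with the largest differences of each guidance list, and the nearest genes by pattern. Further genes (Slit1, Robo3, Robo4, Sema3b, Sema3g, Plxnd1, Mical3, Efna1, Pgf, Vegfd, the marker genes, the genome neighbours and both Mir218 hairpins) were named after their values were seen. RefSeq (GRCm38.p6) served for names, neighbours and sequences. Alternatives covered scaling, pseudocount, floor, filter, probe set choice and threshold.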

Additional observations from a re-analysis of the deposited data

How the results depend on the processing

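Each count of calls was recomputed under 9 alternatives, and 92 of 108 recomputed counts stayed within 1.5 times. That tally includes counts that were 0 in the main setting and in each alternative, such as genes lower in DiBA than in BA. The choice of probe set could not change the 10 guidance genes, with 1 probe set each. The tally is therefore no measure of stability. With a 4-fold threshold, 3 of the 10 guidance genes were lower in DiBA than in fibroblasts and 1 was higher in DiBA than in BA. With intensities under 69.2 raised to it, DiBA exceeded BA for 2, and a filter at the 75th percentile (246) left 1. For the other guidance lists, genes higher in DiBA than in fibroblasts numbered 3 with centred arrays, 3 with a pseudocount of 16, 3 with the stricter filter, 1 at 4-fold and 11 at 1.5-fold, and lower ones 8 at 4-fold. In BA, 13 were lower and 1 higher at 4-fold, and 5 were higher with the stricter filter. In DiBA against BA, 1 was higher with the stricter filter, 1 at 4-fold and 13 at 1.5-fold. The counts at other thresholds and filters follow from their construction. Shares over all genes are not given for those settings, so nothing is read from these counts. Of the called differences of the 10 genes, 0 changed sign under these alternatives. Raising dim values to 69.2 in the position of DiBA between BA and fibroblasts was chosen after seeing the data. No paired analysis was possible because each group holds 1 array. Values below 69.2, as in BA for Slit2, Robo1, Robo2 and Sema3d, limit what the folds can show.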
